A study of Mus musculus with 3 samples.

Results

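The genes described here are 43 transcription factors that mark the identity of cortical excitatory neurons, their progenitors and interneurons, out of 22328 genes measured. They were chosen by name, and 77 of 55680 probes carried one of these names as the gene name given in the scanner files. By known role, 8 were placed among progenitor factors, 5 among upper-layer factors, 6 among deep-layer factors, 7 among excitatory factors of several layers and 17 among interneuron factors. The cells were primary cultures of C57BL6/J mouse cerebrum taken at embryonic day 18, grown in neurobasal medium with B27 and treated for 24 h from day 10 in vitro. There were 3 cultures, one with 1 mM valproate, one with 100 µM lamotrigine and one with 0.1% DMSO alone, and the solvent was present in all of them. Both drugs are used against epilepsy, valproate being also an inhibitor of histone deacetylases and lamotrigine a blocker of voltage-gated sodium channels. The labels place the lamotrigine array outside the histone deacetylase study. With 1 array per treatment, none of the differences below has a replicate check and no p-value is given.

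In the developing forebrain, excitatory neurons come from the dorsal pallium, where Pax6 and Sox2 keep radial glia in their progenitor state, Neurog2 drives neuronal commitment and Eomes marks intermediate progenitors. Their daughters settle in layers, with Tbr1, Fezf2 and Bcl11b specifying deep-layer projection neurons and Cux1, Cux2 and the Pou3f factors marking upper layers. Interneurons come from the ganglionic eminences, where Dlx factors act in nearly all precursors, Nkx2-1 and Lhx6 act in the medial eminence, and Sp8, Nr2f2 and Prox1 mark cells of the lateral and caudal eminences. Histone acetylation is among the chromatin marks at the regulatory regions of such genes.

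Levels below are scaled signals, set so that the 75th percentile of an array's non-control spots equals 100. That percentile was a raw signal of 478 for valproate, 388 for lamotrigine and 372 for DMSO, with 0 saturated spots on each array. A gene was detected where its probe was marked well above background, and the lowest detected scaled signals were 3.88, 4.63 and 5.29 in the same order. Of 399 probes with 10 spots each per array, the technical error was taken from those detected, 282 with valproate, 268 with lamotrigine and 265 with DMSO. For a difference between valproate and DMSO it was 0.24 (SD, log2) at a scaled signal under 25 and 0.06 over 400, and it leaves out variation between cultures, extractions and labelling. Across all 14346 genes detected on both arrays, the median log2 difference was -0.08 for valproate minus DMSO. Scaling on spike-in controls instead of the percentile adds 0.35 to every log2 difference between valproate and DMSO and 0.20 to every one between lamotrigine and DMSO, so signs of small differences hold only for the percentile scaling.

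The cultures carried the markers of neurons and of several other cell types. On all 3 arrays 8 of 8 pan-neuronal, 8 of 8 astrocyte, 9 of 9 oligodendrocyte lineage, 6 of 6 radial glia, 6 of 6 fibroblast and meningeal and 6 of 6 proliferation markers were detected, with 4 of 6 for microglia and 3 or 4 of 6 for endothelial and mural cells. The summed scaled signal of the pan-neuronal markers was 24183 with valproate, 28671 with lamotrigine and 32392 with DMSO. For astrocyte markers it was 20774, 40178 and 40874, and for oligodendrocyte lineage markers 4150, 4113 and 4619. For radial glia markers it was 27857, 33094 and 35402, and for proliferation markers 4571, 3648 and 3581. Such sums mostly follow the brightest probes, as Aldoc (10073, 25605 and 25995) among astrocyte and Olig1 (2853, 2754.5 and 2999) among oligodendrocyte lineage markers. Gfap had 2332, 2603 and 2242, and Gpr17 had 18.6, 178 and 251. In valproate minus DMSO 7 of 8 astrocyte, 6 of 9 oligodendrocyte lineage and 3 of 6 radial glia markers were below 0. Of the radial glia markers 4 of 6 were above 0 in lamotrigine minus DMSO (median 0.19), unlike their sum. The microglial markers Cx3cr1 and P2ry12 were not well above background on any array. In such mixed cultures fewer cells of a type and less RNA per cell cannot be told apart, and the part of these shifts in the results below was not tested.

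Of the 43 transcription factors, 40 were detected on all 3 arrays, 1 on 2 of them and 2 on none. With valproate against DMSO most of these genes differed little under the percentile scaling. Only Dlx6, a homeobox factor of ventral forebrain precursors, was at least 1.5-fold higher among the 40 detected on both arrays, and 0 were at least 1.5-fold lower. Neurog2, the proneural factor, was detected with valproate and not with DMSO. Of all genes detected with both, 6.25% passed 1.5-fold upward and 5.95% downward. At 2-fold 0 factors were higher, against 2.09% of all genes. Of the 40 factors, 32 were within 1.2-fold of DMSO, against 58.1% of all genes, and the SD of their log2 differences was 0.24, against 0.42 for all genes. With spike-in scaling 47.5% of the factors were within 1.2-fold, against 44.1% of all genes, and their median was 0.26. A difference of over 2 technical SD was seen for 12 of 40, 3 of them higher and 9 lower, against 55.8% of all genes. The higher ones were Cux2, Satb1 and Dlx6, and the lower ones Lhx2, Tbr1, Bcl11a, Mef2c, Foxp1, Id2, Dlx1, Lhx6 and Sp8. Of the 28 factors below 0 in valproate minus DMSO, Tbr1 (-0.07), Mef2c (-0.10) and Dlx1 (-0.16) stayed below 0 with spike-in scaling.

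**Figure D1:**
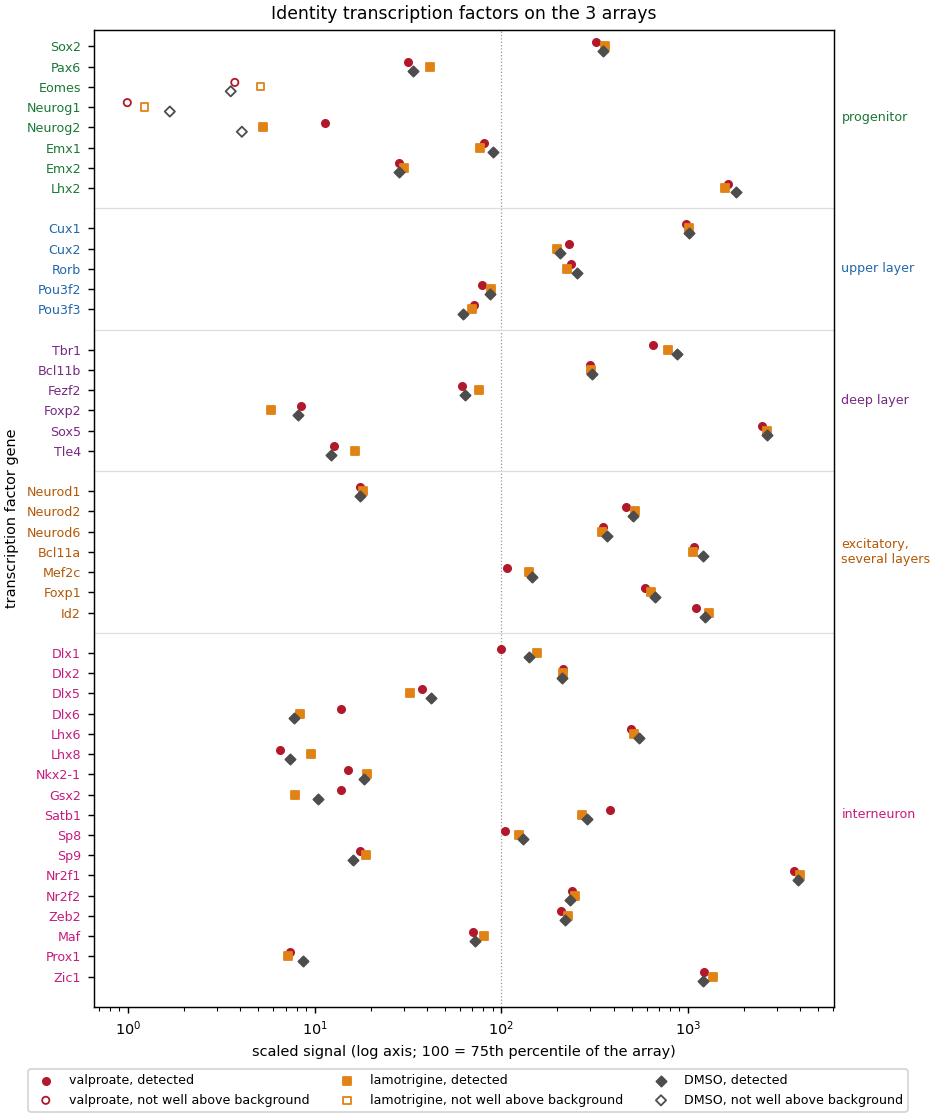
Scaled signal (horizontal, log axis, 100 being the 75th percentile of the array) of the 43 transcription factors (rows, by class) on the valproate, lamotrigine and DMSO arrays; each point is 1 array, and open points were not well above background. The 3 points of most rows lie close together, with Neurog2, Dlx6, Dlx1 and Satb1 among the rows where the valproate point stands apart; rows are different probes and their levels are not compared with each other.

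Among the progenitor factors the values of most genes on the 3 arrays were within a narrow range. Sox2, a factor of neural stem cells, had 322 with valproate, 361 with lamotrigine and 351 with DMSO. Lhx2, which keeps cortical identity in progenitors and is also used in upper-layer neurons, had 1641 with valproate, 1583 with lamotrigine and 1809 with DMSO, so the drug arrays were both below the DMSO array. Its log2 difference was -0.14 for valproate minus DMSO and -0.19 for lamotrigine minus DMSO, each over 2 technical SD and each above 0 with spike-in scaling. Pax6 had 31.7 with valproate, 41.6 with lamotrigine and 33.8 with DMSO, which makes the lamotrigine array the highest (log2 difference 0.30, technical SD 0.12). Emx1 and Emx2, homeobox factors of the dorsal telencephalon, were the lowest and highest in valproate against DMSO of the 5 progenitor factors detected on both arrays. Emx1 had 81.1 with valproate, 77.3 with lamotrigine and 89.9 with DMSO, and a log2 difference of -0.15 between valproate and DMSO. Emx2 had 28.2, 30.3 and 28.4 in the same order, a log2 difference of -0.01 between valproate and DMSO. All 5 were below 0 in valproate minus DMSO (median -0.12), as were 8705 of 14346 genes in all (median -0.08), and with spike-in scaling their median was 0.23.

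The committed-progenitor factors were at the limit of detection. Neurog2 (probe at chromosome 3, 127337805 to 127337864 on mm9) gave 11.4 with valproate, 5.31 with lamotrigine and 4.07 with DMSO, where it was not well above background. Against the DMSO detection floor the valproate level was at least 2.15-fold higher. Against lamotrigine, where it was detected, it was 2.14-fold higher (log2 difference 1.1, technical SD 0.24). With the normexp background correction the valproate minus DMSO difference of Neurog2 was 0.20. Neurog1, its close relative, had 0.991, 1.22 and 1.67, and Eomes had 3.73, 5.14 and 3.55, in the order valproate, lamotrigine, DMSO, and neither was well above background on any array. The second probe of Eomes was not detected either, so no difference is given for these 2 genes.

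The promoter of Neurog2 is shown because its bound was the farthest from DMSO among the 43 genes, and that of Tbr1 because both of its probes were lower with valproate. Dlx1 and Dlx2 are shown as neighbours on 1 chromosome with unlike differences. Each sequence is the 250 bases before the gene's start, 5′ to 3′ on the gene's strand, from RefSeq on GRCm38.p6. Capitals mark 3 motifs searched on both strands, the GC box GGGCGG, the E-box CANNTG, to which basic helix-loop-helix factors such as Neurog2 and Neurod1 bind, and TAATTA, a core bound by many homeodomains. The motifs do not overlap in these windows.
Neurog2, chr3:127632886-127633135, plus strand: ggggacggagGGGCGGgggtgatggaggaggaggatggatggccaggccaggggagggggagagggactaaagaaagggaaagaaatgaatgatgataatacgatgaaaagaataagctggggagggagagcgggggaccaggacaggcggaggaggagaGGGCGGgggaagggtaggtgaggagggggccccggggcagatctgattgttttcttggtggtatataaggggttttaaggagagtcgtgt
Tbr1, chr2:61804203-61804452, plus strand: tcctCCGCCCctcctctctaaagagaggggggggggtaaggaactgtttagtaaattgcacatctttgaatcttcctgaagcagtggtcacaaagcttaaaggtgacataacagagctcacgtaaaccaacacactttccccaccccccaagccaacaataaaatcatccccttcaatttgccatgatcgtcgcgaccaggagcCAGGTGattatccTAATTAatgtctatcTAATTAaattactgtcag
Dlx1, chr2:71529195-71529444, plus strand: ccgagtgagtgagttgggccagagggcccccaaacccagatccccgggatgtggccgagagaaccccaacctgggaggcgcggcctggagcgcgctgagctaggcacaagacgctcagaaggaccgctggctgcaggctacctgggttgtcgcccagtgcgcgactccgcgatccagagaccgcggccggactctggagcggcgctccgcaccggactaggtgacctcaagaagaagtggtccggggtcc
Dlx2, chr2:71546755-71547004, minus strand: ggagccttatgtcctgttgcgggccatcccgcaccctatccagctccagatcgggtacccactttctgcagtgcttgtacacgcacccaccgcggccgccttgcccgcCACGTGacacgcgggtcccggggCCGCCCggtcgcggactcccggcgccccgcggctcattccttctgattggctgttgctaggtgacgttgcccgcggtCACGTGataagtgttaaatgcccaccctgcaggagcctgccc

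The Neurog2 window held 2 GC boxes and 8 CpG dinucleotides, and no E-box or TAATTA. The Tbr1 window held 1 GC box, 1 E-box, 2 TAATTA cores and 5 CpG. The Dlx1 window held none of the 3 motifs and 22 CpG, and the Dlx2 window held 1 GC box, 2 E-boxes and 24 CpG. Promoters were listed for 39 of the 43 genes, 61 windows in all, with a median of 14 CpG per window, against 6 over 32851 promoter windows of 27025 genes. A GC box was present in 57.4% of the members' windows and in 32.7% of all windows, an E-box in 47.5% and 66.2%, and TAATTA in 8.2% and 4.84%. These are letters in a window, not measured binding.

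Upper-layer factors differed little between the arrays on the brightest probe of each gene. Cux1, a homeobox factor that promotes dendrite growth in upper-layer neurons, had 972 with valproate, 1011 with lamotrigine and 1018 with DMSO. Its relative Cux2 had 232 with valproate, 198 with lamotrigine and 207 with DMSO, so valproate was the highest (log2 difference 0.16 against DMSO, technical SD 0.08). On its other probe, with 19.97, 20.3 and 21.0 in the same order, valproate was the lowest (-0.07, technical SD 0.24). The layer IV nuclear receptor Rorb had 237, 224 and 255 in the same order, and its other probe had the same signs. Pou3f3 had 71.6 with valproate, 69.8 with lamotrigine and 62.2 with DMSO, the largest positive difference of the class in valproate against DMSO (0.20). Pou3f2, also known as Brn2, had 78.7, 88.5 and 87.5, the most negative (-0.15). The class median was -0.07 for valproate and -0.01 for lamotrigine, each minus DMSO. The first became 0.03 with quantile normalization and 0.28 with spike-in scaling.

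The probes of Pou3f2 and Cux1 that were dimmer on average over the 3 arrays gave larger valproate minus DMSO differences than the brightest ones. A Pou3f2 probe at chromosome 4, 22413669 to 22413728 on mm9, gave 60.1 with valproate, 72.1 with lamotrigine and 94.6 with DMSO. Its log2 difference was -0.66 for valproate minus DMSO, past 1.5-fold. With DMSO it was brighter than the probe that stands for the gene (87.5). Whether Pou3f2 counts as 1.5-fold lower thus rests on the choice of probe. The third probe was at -0.37. All 3 Pou3f2 probes were below 0. The other probes of Cux1 were at -0.50 and -0.29 for valproate minus DMSO, and at -0.32 and -0.38 for lamotrigine minus DMSO, while the brightest was at -0.07 and -0.01. Which transcript forms these probes measure was not analysed here.

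Tbr1 had the most negative valproate minus DMSO difference of the deep-layer factors. It is a T-box factor of layer VI neurons. Its brightest probe (chromosome 2, 61652093 to 61652152 on mm9) had 653 with valproate, 777 with lamotrigine and 873 with DMSO, so both drug arrays were below DMSO and valproate was the lowest. The log2 difference was -0.42 for valproate minus DMSO (technical SD 0.06) and -0.17 for lamotrigine minus DMSO. The other Tbr1 probe was dim, with 4.83, 7.90 and 8.88 in the same order, and was at -0.88 for valproate minus DMSO (technical SD 0.24). With the mean of its detected probes Tbr1 was at -0.65, past 1.5-fold. The valproate value was 1.34-fold lower on the brightest probe and -0.07 on the log2 scale with spike-in scaling. The lamotrigine minus DMSO difference of Tbr1 was 0.03 with spike-in scaling and -0.10 with quantile normalization.

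The other deep-layer factors were within 1.2-fold of DMSO with valproate. Bcl11b (Ctip2), of layer V neurons that project below the cortex, had 301 with valproate, 304 with lamotrigine and 305 with DMSO, and its other probe was at -0.08 for valproate minus DMSO. Sox5, which times the production of deep-layer neurons, had 2502, 2650 and 2656. Fezf2, the layer V selector, had 61.7 with valproate, 76.4 with lamotrigine and 63.6 with DMSO, which makes lamotrigine the highest (log2 difference 0.26, technical SD 0.12). Foxp2 and the corepressor Tle4 were dim. Foxp2 had 8.49, 5.84 and 8.11 on its 1 detected probe of 5, the highest log2 difference of the class in valproate against DMSO (0.07). With lamotrigine it was at -0.47 against DMSO (technical SD 0.25), under 2 technical SD. Between valproate and lamotrigine it was at 0.54 (technical SD 0.24), at 0.62 with quantile normalization and at -0.001 with normexp correction. Tle4 had 12.7 with valproate, 16.4 with lamotrigine and 12.2 with DMSO, 0.43 for lamotrigine minus DMSO on the brightest probe and 0.11 on the other. The class median was -0.03 for valproate and -0.004 for lamotrigine against DMSO. It turned to 0.04 and 0.08 with quantile normalization and to 0.32 and 0.20 with spike-in scaling.

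**Figure D2:**
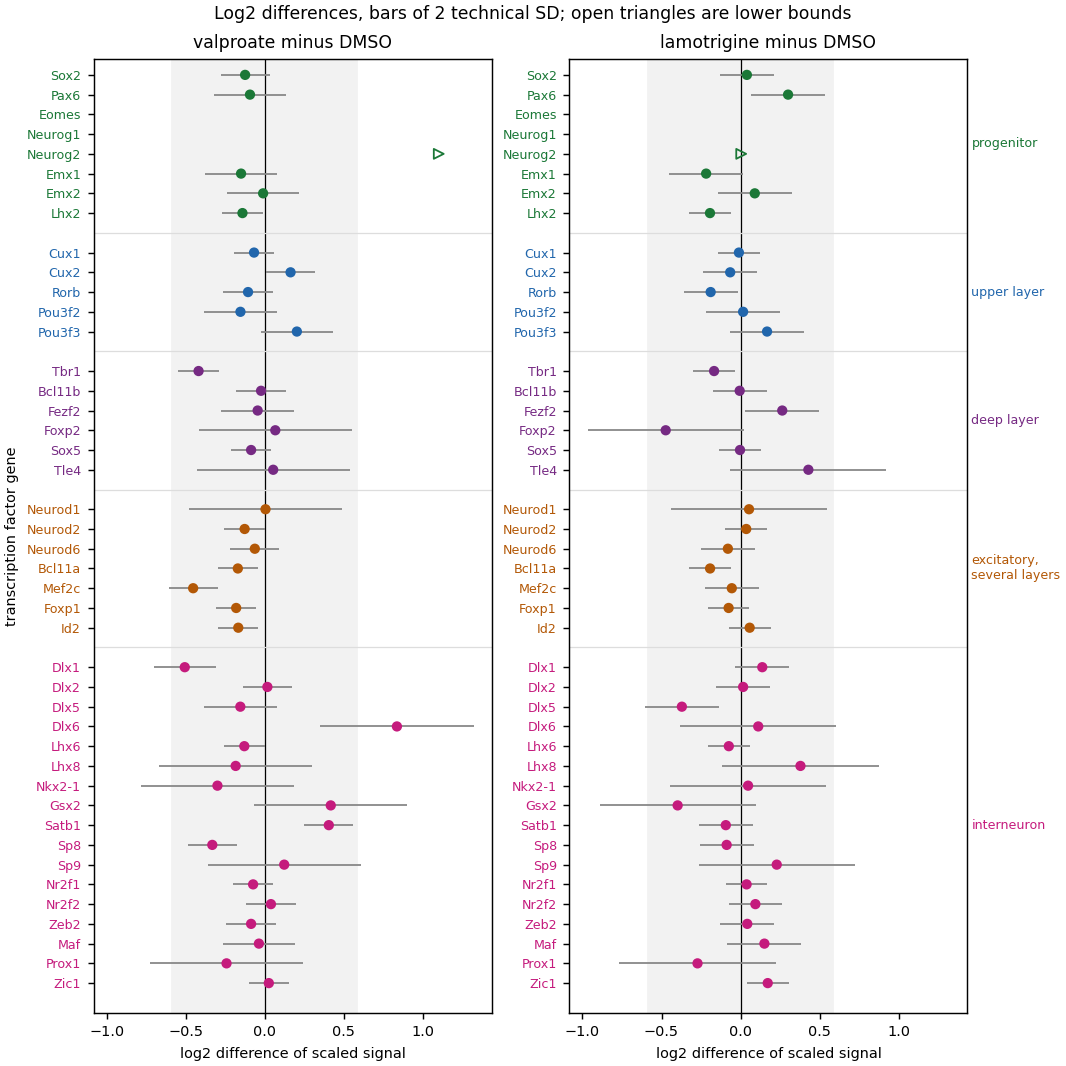
Log2 difference of scaled signal (horizontal) for each transcription factor (rows, by class), valproate minus DMSO on the left and lamotrigine minus DMSO on the right; bars are 2 technical SD to each side, the grey band is 1.5-fold and open triangles are lower bounds for Neurog2. Besides the Neurog2 bound, Dlx6 is the only point outside the band, at 0.84 with valproate.

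Factors shared by excitatory neurons of several layers were slightly below DMSO with valproate under the percentile scaling. Their median was -0.17 over 7 genes, against -0.08 for all genes. It was -0.05 with quantile normalization and 0.18 with spike-in scaling. Mef2c stood apart, and the other 6 lay between -0.18 and 0.01. Mef2c, an activity-regulated factor that limits synapse number, had 106.9 with valproate, 141 with lamotrigine and 146 with DMSO, so the valproate array alone was low. The log2 difference was -0.45 against DMSO and -0.40 against lamotrigine (technical SD 0.08 each), 1.37-fold and 1.32-fold lower. Its probe spans chromosome 13, 83772788 to 83775025 on mm9, which is longer than the probe itself. With spike-in scaling Mef2c was at -0.10 against DMSO.

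The bHLH factors that follow Neurog2 in differentiating excitatory neurons were nearly level. Neurod2 had 464 with valproate, 520 with lamotrigine and 507 with DMSO, and Neurod6 had 352, 347 and 367. Neurod1 had 17.5, 18.1 and 17.5, and at 0.01 for valproate minus DMSO (technical SD 0.24) it was the highest of its class, with a negative sign in 3 other settings. Id2, an inhibitor of bHLH factors, had 1105 with valproate, 1292 with lamotrigine and 1241 with DMSO (log2 difference -0.17 for valproate). The zinc finger factor Bcl11a had 1076, 1059 and 1210, with both drug arrays below DMSO on the log2 scale, -0.17 and -0.19. Its other detected probe had 285, 268 and 279, a difference of 0.03 for valproate and -0.06 for lamotrigine. The forkhead factor Foxp1 had 590, 634 and 668 on its brightest probe, and its 4 detected probes ranged from -0.18 to 0.08 for valproate minus DMSO. For valproate minus DMSO, all of these but Mef2c lie above 0 with spike-in scaling.

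Interneuron factors had members in both directions. Of 17, 7 were above and 10 below 0 in valproate minus DMSO, with a median of -0.07, while 5641 of all genes were above and 8705 below. Of the 17, 11 (64.7%) were within 1.2-fold, near the 58.1% of all genes. The Dlx genes differed among themselves. They lie in convergent pairs, Dlx1 with Dlx2 and Dlx5 with Dlx6, and each pair shares enhancers. Dlx1 (probe at chromosome 2, 71371499 to 71371558 on mm9) read 99.4 with valproate, 155 with lamotrigine and 141 with DMSO, so valproate alone was low. The log2 difference was -0.51 against DMSO (technical SD 0.10), 1.42-fold lower, and -0.64 against lamotrigine, 1.56-fold lower. Its neighbour Dlx2 (71381553 to 71381612 on the same chromosome, minus strand) had 214, 214 and 211, a log2 difference of 0.02 for each drug minus DMSO.

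In the other pair the dim gene was the one that differed. Dlx6 (probe at chromosome 6, 6815092 to 6815151 on mm9) read 13.8 with valproate, 8.35 with lamotrigine and 7.73 with DMSO, with valproate the highest. The log2 difference of 0.84 against DMSO (technical SD 0.24) is 1.79-fold, and against lamotrigine it was 0.72. The spot signals before background subtraction were 155, 116 and 131 over local backgrounds of 78, 67 and 82, and with normexp correction the valproate minus DMSO difference of Dlx6 was -0.03. At a mean scaled signal under 25, as for Dlx6, 26.8% of all genes were at least 1.5-fold apart between valproate and DMSO. Dlx5 (6828063 to 6828122, minus strand) had 37.5 with valproate, 32.3 with lamotrigine and 41.8 with DMSO, which makes lamotrigine the lowest (log2 difference -0.37, technical SD 0.12).

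The antisense and overlapping transcripts of the same loci had probes of their own. Dlx6os1, the long noncoding RNA of the Dlx5 and Dlx6 locus, had 72.0 with valproate, 57.3 with lamotrigine and 61.4 with DMSO, which is a log2 difference of 0.23 for valproate minus DMSO (technical SD 0.11). Dlx6os2 had 22.6, 24.2 and 24.0, a difference of -0.09. Dlx1as, on the strand opposite to Dlx1, had 11.7, 6.74 and 9.15, a difference of 0.35 (technical SD 0.24) while Dlx1 itself was at -0.51. Sox2ot, the transcript that overlaps Sox2, had 30.6 with valproate, 46.2 with lamotrigine and 41.1 with DMSO, a difference of -0.42 (technical SD 0.11), against -0.12 for Sox2. Zeb2os was at 0.16 and Zeb2 at -0.09. Emx2os had 5.65 with valproate, 3.47 with lamotrigine and 5.98 with DMSO, and Pax6os1 had 3.12, 6.67 and 6.26. These values are near the detection floor, and each transcript was marked well above background on 1 array, Emx2os with valproate and Pax6os1 with lamotrigine.

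Among factors of the medial ganglionic eminence, Satb1 stood apart. Satb1, a chromatin organiser that Lhx6 activates in maturing interneurons, had 381 with valproate, 270 with lamotrigine and 288 with DMSO, so valproate alone was high. The log2 difference was 0.41 against DMSO (technical SD 0.08), 1.32-fold, and 0.50 against lamotrigine. Lhx6, the factor of parvalbumin and somatostatin interneurons, had 498, 517 and 544, with its other detected probe at -0.17 for valproate minus DMSO beside -0.13 on the brightest. Nkx2-1, which specifies the medial eminence, was dim at 15.0, 19.1 and 18.5, a difference of -0.30 for valproate minus DMSO (technical SD 0.24). Lhx8 had 6.5 with valproate, 9.60 with lamotrigine and 7.38 with DMSO, close to the floor. Maf had 70.6, 80.4 and 72.4, and Zeb2 had 208, 227 and 221, although a dimmer Zeb2 probe was at -0.53 for valproate minus DMSO.

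Factors of the lateral and caudal eminences had a median of -0.02 over 6 genes with valproate. Sp8, a zinc finger factor of caudal interneurons and olfactory bulb precursors, had 104 with valproate, 124 with lamotrigine and 131 with DMSO, which is a log2 difference of -0.33 against DMSO (technical SD 0.08), with its other probe at -0.22. Gsx2, a homeobox factor of lateral eminence progenitors, had 13.9 with valproate, 7.88 with lamotrigine and 10.4 with DMSO. Valproate was thus the highest and lamotrigine the lowest, by 0.42 and -0.40 against DMSO, each under 2 technical SD of 0 (SD 0.24 and 0.25). Between the drugs it was 1.76-fold higher with valproate (log2 difference 0.82), and its other probe gave 0.53. The nuclear receptor Nr2f1 had 3706, 4004 and 3899, and Nr2f2 had 239, 248 and 232. Sp9 (17.4, 18.8 and 16.02) and Prox1 (7.36, 7.2 and 8.70) were dim and less than 2 technical SD from DMSO with valproate. Zic1, a septal and meningeal factor, had 1225 with valproate, 1355 with lamotrigine and 1203 with DMSO, which makes lamotrigine the highest (log2 difference 0.17, technical SD 0.07).

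**Figure D3:**
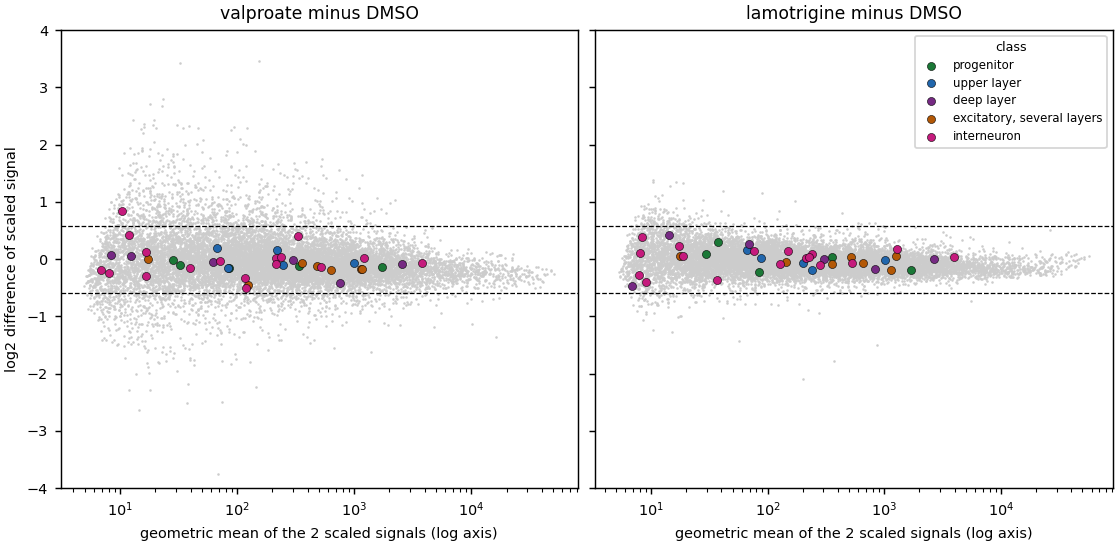
Log2 difference of scaled signal (vertical) against the geometric mean of the scaled signal on both arrays (horizontal, log axis), for valproate minus DMSO on the left and lamotrigine minus DMSO on the right; grey points are all genes detected on both arrays, coloured points the transcription factors by class, and dashed lines mark 1.5-fold. Of 40 factors, 1 lies outside the lines with valproate and 0 with lamotrigine, and the grey cloud is wider for dim genes.

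With lamotrigine against DMSO, none of the 40 factors detected on both arrays was at least 1.5-fold higher (0) or lower (0). Of all 14340 genes detected on the lamotrigine and DMSO arrays, 1.12% passed 1.5-fold upward and 0.76% downward. The 40 values had a median of 0.02 and an SD of 0.20, against -0.05 and 0.21 for all genes, and 80.0% were within 1.2-fold, against 82.4% of all genes. Over 2 technical SD lay 8 of 40, 3 higher and 5 lower, against 31% of all genes. The higher ones were Pax6, Fezf2 and Zic1, and the lower ones Lhx2, Rorb, Tbr1, Bcl11a and Dlx5. Class medians ran from -0.06 for the excitatory factors of several layers to 0.04 for the interneuron and progenitor factors, and all 5 lay above 0 with spike-in scaling.

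Valproate and lamotrigine were also set side by side, and 41 factors were detected on both arrays. Neurog2, Gsx2 and Dlx6 were at least 1.5-fold higher with valproate, where 6.17% of 14544 genes were, and Dlx1 was at least 1.5-fold lower, where 5.84% were. At 2-fold, 1 was higher (Neurog2) and 0 were lower, against 2.06% and 1.69% of all genes. Over 2 technical SD lay 17 of 41, 6 higher and 11 lower, against 51.1% of all genes. This comparison shares the valproate array with the first and the lamotrigine array with the second, and the comparisons with DMSO share the DMSO array, so they are not separate evidence. Satb1, Dlx6 and Gsx2 on the high side and Tbr1, Mef2c and Dlx1 on the low side had the same sign against DMSO as against lamotrigine.

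Of the 43 genes, 17 had several probes detected with valproate and DMSO. In 12 of the 17 the probes had the same sign in valproate minus DMSO, and the median range between the probes of a gene was 0.16, with a highest range of 0.50 for Pou3f2. For lamotrigine minus DMSO 13 of 17 had the same sign, and the highest range was 0.59, for Foxp1. The spread between probes of a gene was thus as large as most of the differences between treatments. Dlx6, Mef2c, Satb1 and Dlx1 each had 1 detected probe, so their values have no second probe beside them.

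**Figure D4:**
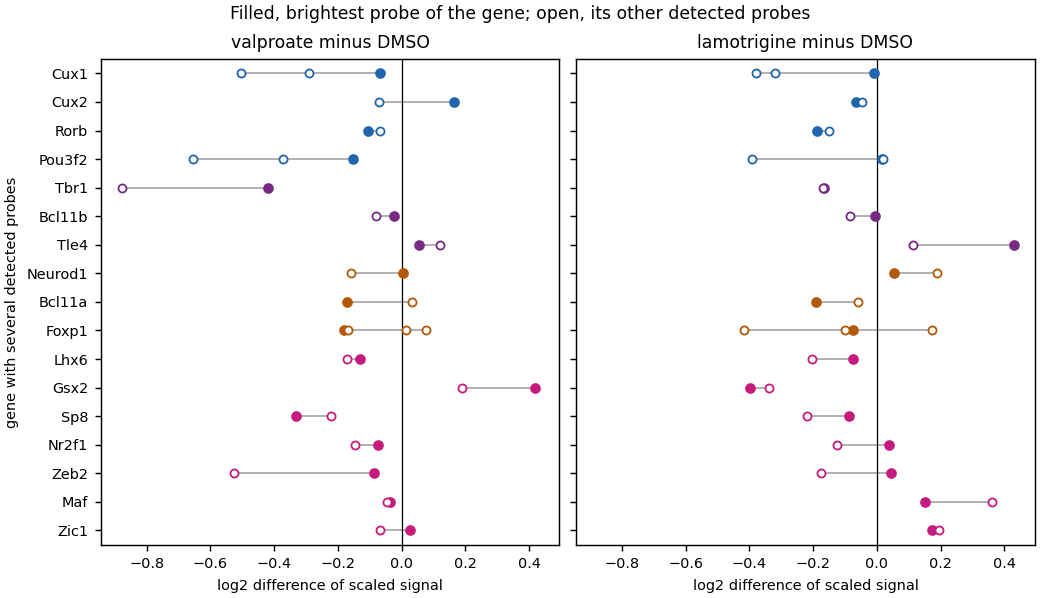
Log2 difference of scaled signal (horizontal) for each detected probe of the 17 genes with several, valproate minus DMSO on the left and lamotrigine minus DMSO on the right; filled points are the brightest probe of the gene and open points its others, joined by a line. Both Tbr1 probes (-0.42 and -0.88) and all 3 Pou3f2 probes lie below 0 with valproate.

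Other transcription factors of the forebrain were set beside the 43. Of 40 such genes listed, 35 were detected with valproate and DMSO. Of these 35, 5 were higher and 0 lower by 1.5-fold or more with valproate, around a median of -0.14. Of all genes 6.25% were higher and 5.95% lower by that much, around a median of -0.08. Farthest from 0 were Lhx5, a factor of Cajal-Retzius cells and the hem, at 19.9 with valproate, 4.92 with lamotrigine and 7.01 with DMSO (log2 difference 1.5 against DMSO), Npas1, a factor of interneurons, at 236, 109 and 102 (1.21), and Nhlh1 at a difference of 0.78. Lhx5 and Nhlh1 were dim, with a technical SD of 0.24 each. Of 32 factors of other brain regions and the neural crest, 18 were not well above background with valproate or DMSO. Of the others, 7 were detected on both arrays and 7 on 1 of them. Pou4f1, a sensory neuron factor, was at 35.4 with valproate, 8.34 with lamotrigine and 7.11 with DMSO (log2 difference 2.32), Lmx1a at 25.8, 58.45 and 42.3 in the same order (-0.71), and Barhl1 at -0.32. Pou4f1 was dim with lamotrigine and DMSO, and its technical SD was 0.19. Phox2a, a factor of noradrenergic neurons, was at 18.3 with valproate and not detected with lamotrigine or DMSO. Its valproate value was at least 3.46-fold higher than the DMSO floor. Gbx2, Olig3 and Gata3 were also detected with valproate and not with DMSO. Gbx2 had 9.75 with valproate and 10.6 with lamotrigine, at least 1.69-fold and 1.85-fold higher than with DMSO. Olig3 had 6.35 and 7.18, so both genes were also detected with lamotrigine, at a higher value. Gata3 had 4.78 with valproate, under the DMSO floor of 5.29, so it shows no difference. Pax3, Lhx3 and Tfap2b were dim and detected with DMSO and lamotrigine and not with valproate. With valproate they were at least 1.81-fold, 1.67-fold and 1.83-fold lower, in that order.

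Genes for the transmitters, receptors and other products of interneurons and excitatory neurons were also read. Under the percentile scaling their medians were near 0 with valproate and below 0 with lamotrigine, and single genes lay far from them. Of 21 interneuron genes detected with valproate and DMSO, 1 was higher and 1 lower by 1.5-fold or more with valproate, around a median of -0.02. They were the serotonin receptor Htr3a, at 41.4 with valproate, 31.3 with lamotrigine and 25.3 with DMSO (log2 difference 0.71 against DMSO), and the neuropeptide cortistatin (Cort), at 260.0 with valproate, 97.4 with lamotrigine and 415.5 with DMSO (-0.68). For Cort the lamotrigine minus DMSO difference was -2.09, the lowest of all 14340 genes detected on both of those arrays. Parvalbumin (Pvalb) was at 0.58, just under 1.5-fold. Of 19 excitatory neuron genes 1 was higher and 0 lower by that much, around a median of -0.01. That gene was Slc30a3, the zinc transporter of synaptic vesicles, at 23.0 with valproate, 6.37 with lamotrigine and 7.15 with DMSO (1.68). It was dim, with a technical SD of 0.24. The shares over all genes were 6.25% higher and 5.95% lower. In lists of 21 and 19 genes, counts of 0 or 1 are near these shares. The kinase subunit Camk2b was at -0.50 and Rasgrf2 at -0.40. With lamotrigine minus DMSO the medians were -0.17 for the interneuron genes and -0.11 for the excitatory neuron genes, over the same numbers of genes, while those of the interneuron and excitatory factors were 0.04 and -0.06. Below 0 were 14 of the 21 interneuron genes and 17 of the 19 excitatory neuron genes. The median of all genes was -0.05, with 8627 of 14340 below 0.

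**Figure D5:**
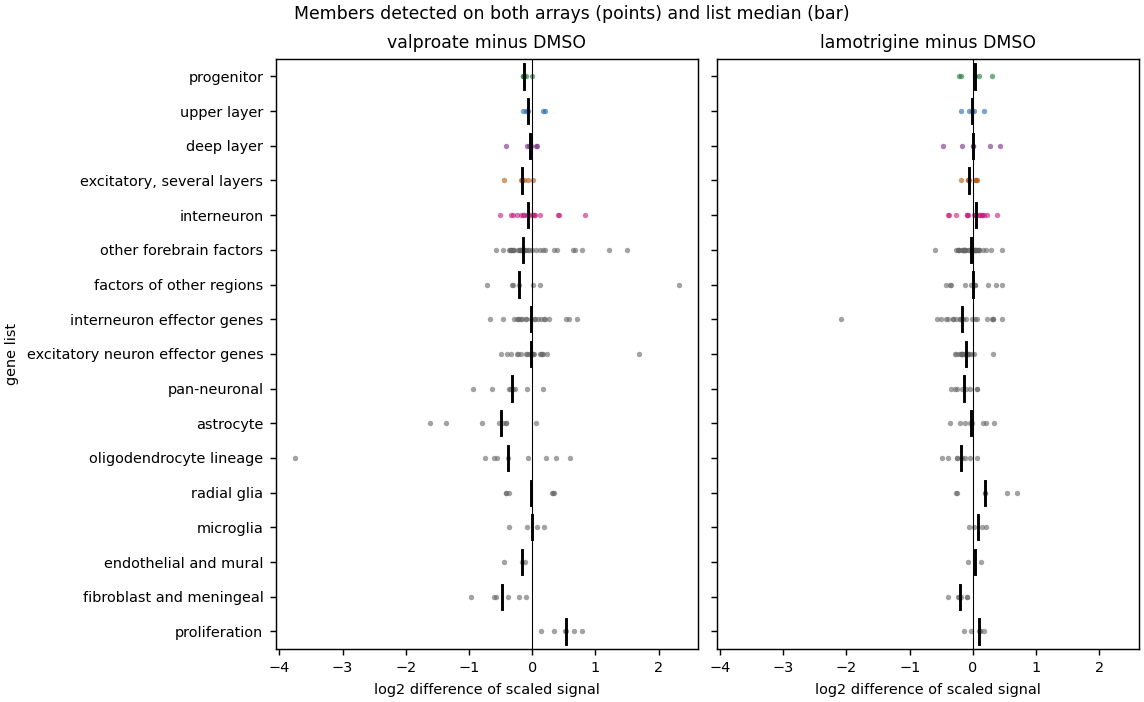
Log2 difference of scaled signal (horizontal) of the genes of each list detected on both arrays (points), with the list median (black bar), for valproate minus DMSO on the left and lamotrigine minus DMSO on the right; coloured rows are the 5 classes of the 43 factors and grey rows the other lists and cell type markers. With valproate the class medians lie between -0.17 and -0.03, while the medians of pan-neuronal (-0.33), astrocyte (-0.50) and proliferation markers (0.53) lie farther from 0.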

How the data were processed

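Per the labels, Cy3-labelled RNA of 3 cultures was hybridised to mouse arrays from Agilent. Per the file headers, each spot intensity was read with Feature Extraction 10.7.1.1 on a design annotated on mm9, and the processed signal is background-subtracted and detrended separately for each array, without normalization across them. The deposited table holds intensity values that are quantile-normalized, from their equal sorted columns, and its software is not given in the sources used here.

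From the scanner files, log2 of the processed signal minus log2 of the array's 75th percentile was computed with Python 3.11.15, outlier spots were left out and spots of a probe averaged. The probe brightest on average over the 3 arrays stood for its gene. Log2 differences were taken where a gene was detected on both sides of a comparison, and otherwise a bound was set at the detection floor. Probes were named by the files' gene names for the 43 factors and by RefSeq accession or symbol for all other genes. Normexp (offset 50) and quantile normalization used limma 3.58.1. The calculation was tested on simulated data with the same noise for every spot and the DMSO detection marks on all arrays. That test therefore does not cover the larger error of dim genes or the detection bounds. Precision is limited by the number of arrays.

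The 43 genes, their classes and the lists were chosen with earlier results of these data known. Values of all arrays are given for those of the 43 genes at least 1.5-fold apart in a comparison and for the highest and lowest of each class in valproate minus DMSO. From each further list the 3 detected genes farthest from 0 are named. Other genes, the antisense transcripts and the promoters shown were chosen after values were seen. The alternatives tried were quantile normalization, the median of detected probes or spike-in controls as scale, normexp, the deposited table, other detection filters, the mean of probes, outlier spots kept, 2-fold and 4 classes alone.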

Additional observations from a re-analysis of the deposited data

How the results depend on the processing

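No paired analysis was possible because each treatment had 1 array. With valproate against DMSO, the 1 factor at least 1.5-fold higher became 3 with spike-in scaling (Dlx6, Gsx2 and Satb1), 2 without the detection filter (Dlx6 and Neurog2), 0 with normexp correction and 0 at 2-fold. Dlx6 itself turned to -0.026 with normexp correction, and the cause was not tested. The 0 lower became 1 without the filter (Neurog1) and 1 with the mean of detected probes (Tbr1). With lamotrigine against DMSO, the 0 higher became 1 with spike-in scaling (Tle4). Between the drugs, the 3 higher became 5 with spike-in scaling, 4 with quantile normalization and 4 with the deposited table (Foxp2 added), 2 with detection on all 3 arrays, 0 with normexp correction and 1 at 2-fold, and the 1 lower became 0 with spike-in scaling, with normexp correction and at 2-fold. Spike-in scaling moved the class medians for valproate minus DMSO to 0.23 (progenitor), 0.28 (upper layer), 0.32 (deep layer), 0.18 (excitatory, several layers) and 0.28 (interneuron), and for lamotrigine minus DMSO to 0.24, 0.19, 0.20, 0.15 and 0.24 in the same order. For valproate minus DMSO the upper-layer median was 0.027 with quantile normalization and 0.035 with the deposited table, and that of the excitatory factors of several layers was -0.051 with quantile normalization, -0.053 with the deposited table and -0.076 with the mean of probes. The upper-layer median for lamotrigine minus DMSO was -0.12 with the mean of probes. Deep-layer medians also changed sign, to 0.041 with quantile normalization and 0.048 with the deposited table for valproate, and to 0.075 and 0.080 for lamotrigine, each minus DMSO. For lamotrigine minus DMSO the upper-layer median was 0.0097 with quantile normalization, 0.018 with the deposited table and 0.010 with normexp correction, and with normexp correction the progenitor median was -0.013 and the interneuron median -0.0048. Dim probes limit what can be read from Neurog2, Neurod1, Dlx6, Gsx2, Foxp2, Tle4, Lhx8, Nkx2-1, Sp9 and Prox1, whose technical SD was 0.24.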
